A study of Mus musculus with 6 samples.

Results

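Chemokines are small secreted proteins that steer migrating cells, and their receptors are membrane proteins that couple to inhibitory G proteins. The 42 genes described here are 26 chemokine ligands, 12 signalling chemokine receptors and the 4 atypical receptors Ackr1 to Ackr4. They were named as a list, from the 18193 genes measured on the array, and Cxcl12, Pf4 and Ppbp are left out of it and given further on with other relatives. Each gene is represented by 1 probe set, the brightest on average across the 6 arrays of those whose annotation names no other gene, and all 42 were measured.

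The study compared freshly isolated, untreated stromal cells from the bone marrow of adult wild-type C57BL/6 mice. The 3 Ebf2-positive samples were sorted as CD45-TER119-CD31-EBF2+, and the 3 Ebf2-negative samples as CD45-TER119-CD31-EBF2-, so both were gated as lacking CD45, TER119 and CD31. Ebf2 is a transcription factor of immature mesenchymal cells, and the comparison asks what sets the cells that carry it apart from the rest of the gate. RNA of 1000 or 2000 cells per sample was amplified and hybridized to Affymetrix MOE430_2 arrays. The sources used here do not say how Ebf2 was detected, how many animals were used, whether the samples came from separate animals, or which samples had 1000 cells. The p-values thus reflect array-to-array spread alone, and that spread may be technical.

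Ligands are classed by the spacing of their first cysteines as CC, CXC, CX3C or XC, and most inflammatory receptors bind several of them. Atypical receptors bind chemokines without the usual G protein signal and take them up or carry them across cells, which shapes the gradient that other cells read. In the marrow, Cxcl12 made by stromal cells holds blood progenitors and B-cell precursors in place through Cxcr4, and Cxcr2 ligands draw neutrophils out.

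The DNA just upstream of a gene's start could be read for 31 of the 42 genes from the RefSeq promoter table (build GRCm38.p6). Windows of 250 bases before the start were searched on both strands for the NF-kappaB consensus and for a few other motifs, and overlapping matches were counted. Of the 11 genes whose signal passed the test between the groups (adjusted p under 0.05, below), 10 are in the table, and 4 of these 10 hold an NF-kappaB match. The 4 are shown because they fall on both sides of the comparison: Cxcl1 and Ackr2 were higher in Ebf2-positive cells, and Ccl9 and Ccr1 were lower. They are written 5′ to 3′ on the gene's own strand, and capitals mark the NF-kappaB matches.
Cxcl1, chr5:90890995-90891244, plus strand: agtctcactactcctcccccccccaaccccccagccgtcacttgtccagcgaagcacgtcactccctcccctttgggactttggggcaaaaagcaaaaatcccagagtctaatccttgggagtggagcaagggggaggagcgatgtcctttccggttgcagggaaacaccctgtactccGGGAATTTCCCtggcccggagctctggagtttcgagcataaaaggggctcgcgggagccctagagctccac
Ackr2, chr9:121898105-121898354, plus strand: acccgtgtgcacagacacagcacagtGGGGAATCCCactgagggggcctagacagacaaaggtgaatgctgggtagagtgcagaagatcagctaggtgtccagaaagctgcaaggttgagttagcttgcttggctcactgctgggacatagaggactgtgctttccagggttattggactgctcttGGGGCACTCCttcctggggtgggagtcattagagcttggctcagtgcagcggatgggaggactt
Ccl9, chr11:83578637-83578886, minus strand: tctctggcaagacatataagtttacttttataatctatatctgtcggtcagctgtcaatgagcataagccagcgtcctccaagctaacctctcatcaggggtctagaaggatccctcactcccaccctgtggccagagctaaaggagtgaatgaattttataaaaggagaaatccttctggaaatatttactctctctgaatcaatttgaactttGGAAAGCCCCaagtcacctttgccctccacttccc
Ccr1, chr9:123968693-123968942, minus strand: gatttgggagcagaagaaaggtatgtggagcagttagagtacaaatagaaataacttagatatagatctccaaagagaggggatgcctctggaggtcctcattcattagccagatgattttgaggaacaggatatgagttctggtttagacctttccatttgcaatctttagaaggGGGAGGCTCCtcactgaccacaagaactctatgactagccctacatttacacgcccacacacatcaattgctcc

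Matches to the NF-kappaB consensus began 71 and 70 bases before the start of Cxcl1, where they overlap each other, 224 and 64 bases before Ackr2, 35 before Ccl9 and 74 before Ccr1. Among the 31 genes, which have 33 windows between them, 9 held at least 1 such match, and among all 32851 windows of this length 7.25% did. Here and for the motifs below, a gene was counted if any of its windows matched, while the share over all is per window. The TATA box letters TATAAA were found for 9 of the 31 genes, among them Cxcl13, Ackr3, Ccl9 and Cxcr4, and in 12.4% of all windows. The GATA motif AGATAA was found for 5 genes and in 9.99% of all windows. The AP-1 motif TGANTCA was found for 3 genes, among them Ccl9, and in 6.75% of all windows. An EBF consensus matched 0 of the 31 genes and 0.779% of all windows, and a STAT6 consensus matched 1 gene, Ccl17, and 5.85% of all windows. A match describes these letters only.

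Signal was compared on the log2 scale of the RMA values, as Ebf2-positive minus Ebf2-negative, with limma and Benjamini-Hochberg adjustment over all 18193 genes. Of the 42 chemokine system genes, 6 were higher and 5 lower in Ebf2-positive cells, and 31 did not pass. Over all genes 10.8% were called higher and 13.6% lower, 24.4% in all, so the shares of the chemokine genes, 14.3% and 11.9%, lie near the background and are not a result about the family. The median difference of the 42 genes was 0.13, against 0.07 over all genes. The arrays of the groups did not overlap for 18 of the 42 genes, and for 43% of all genes.

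By class, of 26 ligands, 3 were higher (Ccl11, Cxcl13 and Cxcl1) and 3 lower (Ccl3, Ccl9 and Ccl6). That is 11.5% each way, near the 10.8% and 13.6% of all genes. Of the 12 signalling receptors, 0 were higher in limma, also at an unadjusted p under 0.05, and 2 were lower (Ccr1 and Cxcr4). The lower share is 16.7%, against 13.6% of all genes. Of the 4 atypical receptors, 3 were higher (75%, against 10.8% of all genes) and 0 lower, and 0 were lower at an unadjusted p under 0.05 either. With the arrays centred on spiked-in controls (last paragraph), Ackr3 alone of the atypical receptors was still called higher. The difference between the classes was not tested.

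**Figure D1:**
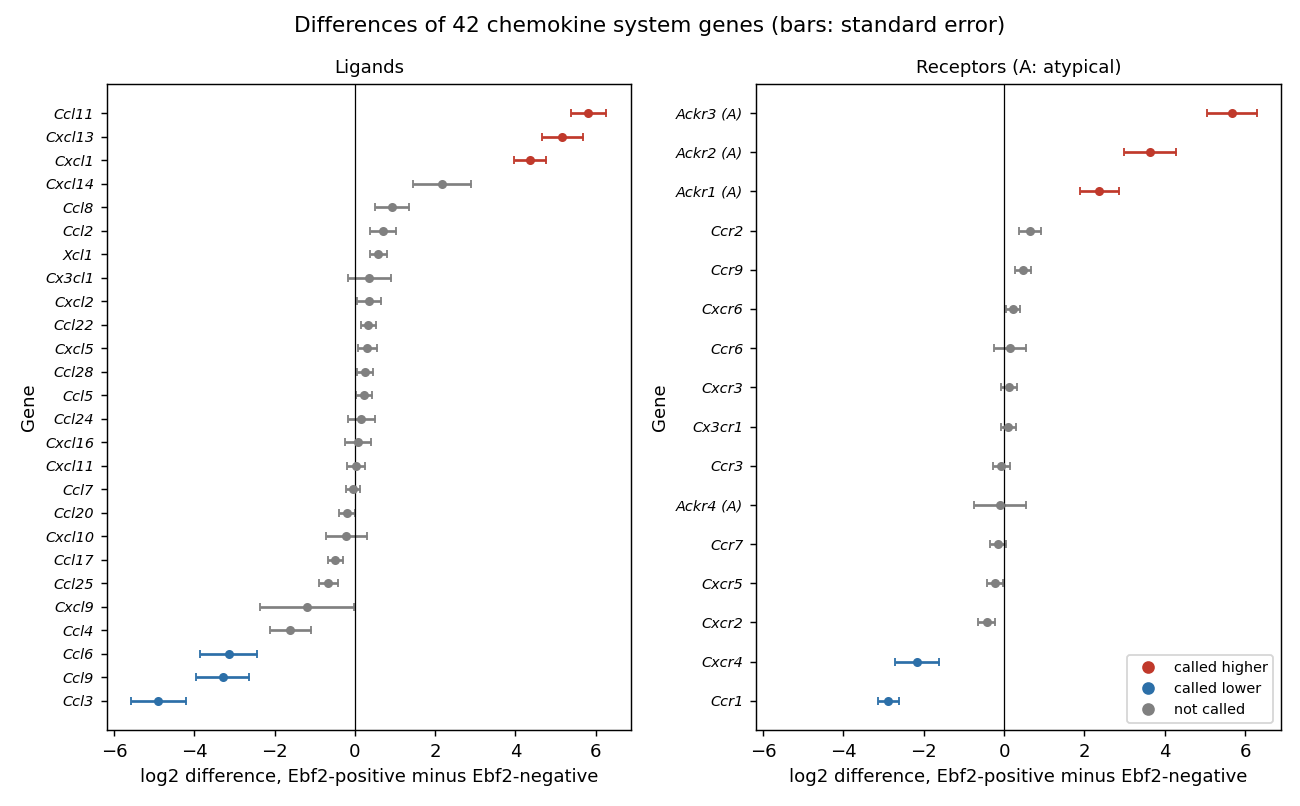
Differences in log2 RMA signal, Ebf2-positive minus Ebf2-negative, for the 26 ligands (left) and the 16 receptors (right, atypical ones marked A). Points are limma estimates and bars are standard errors, with 3 arrays per group. The points called higher are Ccl11, Cxcl13, Cxcl1 and Ackr1 to Ackr3, those called lower are Ccl3, Ccl6, Ccl9, Ccr1 and Cxcr4, and most of the others lie within 1 of 0.

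The gate and the arrays can be read from a few genes. Ebf2 itself averaged 8.33 ± 0.41 on the Ebf2-positive arrays and 3.66 ± 0.49 on the Ebf2-negative arrays (SD, n = 3 each, difference 4.67, adjusted p = 0.000476 with limma). Ptprc, the gene of CD45, was not absent, with 5.68 ± 1.81 on the Ebf2-positive and 8.33 ± 0.41 on the Ebf2-negative arrays, and its difference of -2.65 did not pass (adjusted p = 0.0698). Correlations between arrays across genes, which are not independent replicates, were 0.926 to 0.934 within Ebf2-positive, 0.971 to 0.979 within Ebf2-negative and 0.799 to 0.850 between the groups. Ebf2-positive replicate 2 stood apart from replicates 1 and 3 on the next principal component after the one that separates the groups (-71.4 against 46.1 and 27.2, with 11.2% of the variance). Without both arrays numbered 2, 8 chemokine genes were called higher and 6 lower. Markers of some other cells moved with the groups. All 6 fibroblast and all 6 pericyte markers were higher, with list means of 11.74 to 12.14 and 11.02 to 11.31 on the Ebf2-positive arrays, against 5.64 to 6.77 and 5.88 to 6.75 on the Ebf2-negative arrays. All 9 erythroid and 4 of 5 basophil and mast cell markers were lower, with list means of 4.18 to 4.43 and 3.80 to 4.15 on the Ebf2-positive arrays, against 9.38 to 9.62 and 6.96 to 8.57 on the Ebf2-negative arrays. Neutrophil list means overlapped, at 7.67 to 9.41 on the Ebf2-positive and 8.23 to 9.23 on the Ebf2-negative arrays. Of 9 neutrophil markers, 2 were higher (Mpo and Prtn3) and 0 lower, but 4 were lower in limma at an unadjusted p under 0.05. The monocyte and macrophage, eosinophil, megakaryocyte, B-cell, T and NK-cell and dendritic-cell list means overlapped too. No marker reads 0 on an array. In sorted pools of this kind, fewer cells of a type and less RNA per cell cannot be told apart, and the part these cells have in the results below was not tested.

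The ligands higher in Ebf2-positive cells attract eosinophils, B cells and neutrophils. Ccl11, or eotaxin, the eosinophil attractant that acts through Ccr3, had log2 signals of 7.85, 9.51 and 8.91 on Ebf2-positive replicates 1 to 3, against 2.71, 3.22 and 2.88 on Ebf2-negative replicates 1 to 3. Every Ebf2-positive array was far above every Ebf2-negative array, and the difference was 5.82 (SE 0.43), or 56.4-fold (limma, adjusted p = 0.000518). Dim array signal does not fall in proportion to RNA, so folds against dim groups are not exact.

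Cxcl13, which organises B-cell follicles through Cxcr5, stood at 7.27, 9.18 and 8.85 in Ebf2-positive samples, against 2.93, 3.44 and 3.45 in Ebf2-negative samples. The groups did not overlap, Ebf2-positive replicate 1 was the lowest of its group for Cxcl13 as for Ccl11, and the difference was 5.16 (SE 0.51), or 35.8-fold (limma, adjusted p = 0.00123). The other Cxcl13 probe set differed by 2.01 (adjusted p = 0.0488 over all probe sets).

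Cxcl1, a CXC chemokine that draws neutrophils through Cxcr2, stood at 9.68, 10.11 and 9.79 in Ebf2-positive samples, against 5.31, 6.34 and 4.82 in Ebf2-negative samples. The Ebf2-positive arrays agreed closely, the Ebf2-negative arrays spread over more than 1 unit, and the groups did not overlap (difference 4.37, SE 0.40, 20.7-fold, limma adjusted p = 0.00095). Its other probe sets were also called higher, by 4.82 and 2.35. The promoter window shown above with overlapping NF-kappaB matches is that of Cxcl1.

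Cxcl14, a chemokine of skin and connective tissue, was bright but did not pass. It stood at 8.86, 10.05 and 8.20 in Ebf2-positive samples, against 6.00, 8.27 and 6.34 in Ebf2-negative samples. Ebf2-negative replicate 2 reached above Ebf2-positive replicate 3, so the groups overlapped, and the difference of 2.17 had a 95% interval of 0.44 to 3.90 (limma, adjusted p = 0.0755). Left out, that Ebf2-negative array changed the outcome, with 2.87 and an adjusted p of 0.0242. Over the 19 alternatives in processing other than centring on the spiked-in controls, adjusted p ran from 0.0120 to 0.216, and the ranges below leave that centring out in the same way.

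Ccl3, Ccl6 and Ccl9 are CC chemokines of leukocytes that bind Ccr1, and all were lower in Ebf2-positive cells together with that receptor. Ccl3, or MIP-1 alpha, stood at 2.31, 3.04 and 2.64 in Ebf2-positive samples, against 8.30, 5.92 and 8.46 in Ebf2-negative samples. The Ebf2-positive arrays were all dim and Ebf2-negative replicate 2 was the lowest of its group (difference -4.90, SE 0.69, 29.8-fold, limma adjusted p = 0.00401).

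Ccl9 stood at 6.07, 6.10 and 3.89 in Ebf2-positive samples, against 8.56, 8.07 and 9.30 in Ebf2-negative samples. Ebf2-positive replicate 3 was the lowest array, the groups did not overlap, and the difference was -3.29 (SE 0.66, limma adjusted p = 0.0140). Dropping Ebf2-negative replicate 1 gave -3.33 (adjusted p = 0.0503) and dropping replicate 3 gave -2.96 (adjusted p = 0.0571), neither within the threshold, in a range of 0.00404 to 0.0571 over 19 alternatives. Its other probe set was called lower too, by -1.32.

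Ccl6 stood at 4.19, 5.34 and 2.79 in Ebf2-positive samples, against 7.74, 6.33 and 7.68 in Ebf2-negative samples. The Ebf2-positive arrays were widely spread, with replicate 3 lowest, and the difference was -3.15 (SE 0.70, limma adjusted p = 0.0204). It no longer passed when Ebf2-positive replicate 1 (-3.19, adjusted p = 0.0540), Ebf2-negative replicate 1 (-2.90, adjusted p = 0.0768) or Ebf2-negative replicate 3 (-2.93, adjusted p = 0.0786) was dropped, with adjusted p of 0.00621 to 0.0786 over 19 alternatives. The other Ccl6 probe set differed by -3.85 and did not pass over all probe sets (adjusted p = 0.0593).

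Ccl4, or MIP-1 beta, the neighbour of Ccl3, stood at 4.72, 4.10 and 5.01 in Ebf2-positive samples, against 7.06, 5.18 and 6.42 in Ebf2-negative samples. The groups did not overlap, but the difference of -1.61 did not pass (limma, adjusted p = 0.0663). It passed without Ebf2-negative replicate 2 (-2.13, adjusted p = 0.0175), and adjusted p ran from 0.0175 to 0.184 over 19 alternatives. Ebf2-negative replicate 2 was the lowest of its group for Ccl3, Ccl4, Ccl6, Ccl9 and Ccr1. Among the marker lists it was lowest for basophils and mast cells (6.96, against 8.57 and 8.46 on replicates 1 and 3). For B cells it was lowest too (4.28, against 4.59 and 4.48). All other marker lists had their highest Ebf2-negative mean on it, among them fibroblast (6.77), pericyte (6.75) and endothelial (5.74). The part of any of these cells was not tested.

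Ccr1, the receptor of Ccl3, Ccl6 and Ccl9 on myeloid cells, stood at 2.90, 3.35 and 2.87 in Ebf2-positive samples, against 6.27, 5.56 and 5.93 in Ebf2-negative samples. Both groups were tight and did not overlap (difference -2.88, SE 0.26, 7.36-fold, limma adjusted p = 0.000915). Its other probe set differed by -0.96 and did not pass (adjusted p = 0.226 over all probe sets). Of 11 monocyte and macrophage markers, 0 were higher (against 10.8% of all genes) and 1 was lower (9.09%, against 13.6%). At an unadjusted p under 0.05 the counts were 0 and 1 as well. The list means were 3.39 to 4.51 in Ebf2-positive and 3.73 to 4.23 in Ebf2-negative samples. The lower marker was Mrc1, with a difference of -2.62 (SE 0.24, limma adjusted p = 0.00099) and no overlap between the groups, near the -2.88 of Ccr1. Ly86, Csf1r and Cd14 differed by 0.77, -0.49 and 0.08 and did not pass. C1qa, C1qb, C1qc, Cd68, Ms4a7, Adgre1 and Fcgr1 did not pass either and had means below 4 in both groups. The part of these cells in the Ccr1 difference was not tested.

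**Figure D2:**
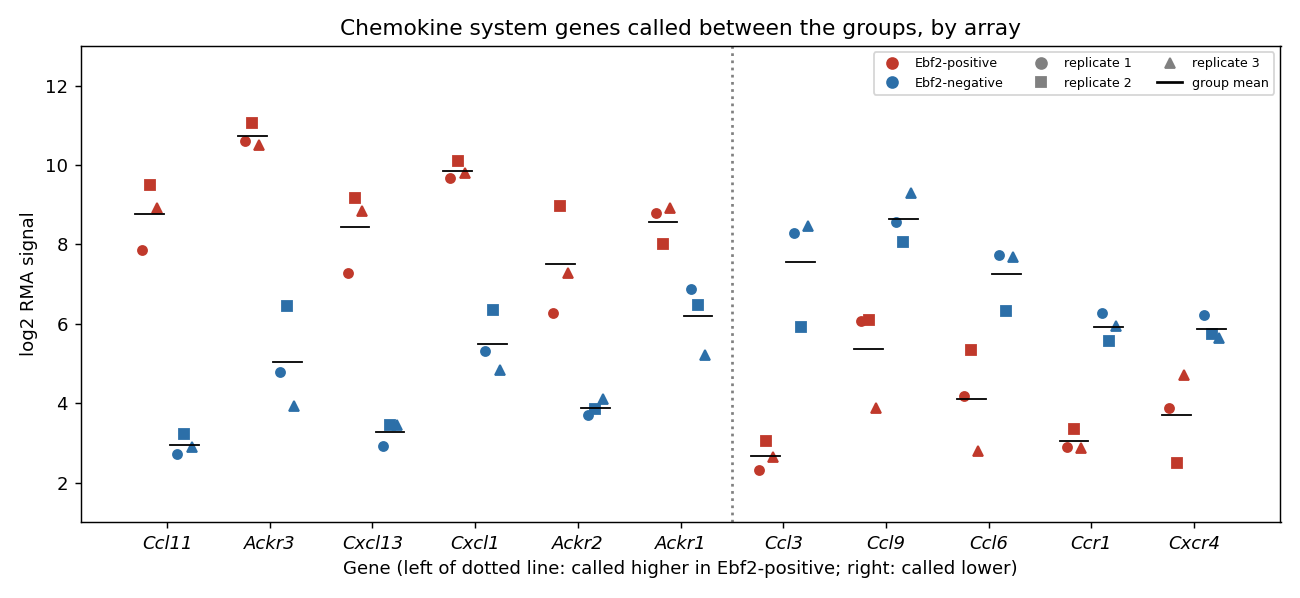
Log2 RMA signal of the 11 called chemokine system genes on each array, with Ebf2-positive samples in red at the left of each gene and Ebf2-negative samples in blue at the right. Symbols give the replicate and black lines the group means. Ccl11 and Ackr3 have the widest gaps on the higher side and Ccl3 on the lower side, and the groups overlap for none of the 11.

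The receptors that bind Cxcl12 moved in opposite directions. Ackr3, the atypical receptor that takes up Cxcl12 and Cxcl11, stood at 10.61, 11.06 and 10.50 in Ebf2-positive samples, against 4.78, 6.44 and 3.93 in Ebf2-negative samples. The Ebf2-positive arrays lay within 1 unit and well above the others (difference 5.67, SE 0.62, 51.0-fold, limma adjusted p = 0.00172).

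Cxcr4, the signalling receptor of Cxcl12, stood at 3.88, 2.50 and 4.72 in Ebf2-positive samples, against 6.23, 5.75 and 5.63 in Ebf2-negative samples. The Ebf2-positive arrays were spread and all below the Ebf2-negative arrays (difference -2.17, SE 0.55, 4.51-fold, limma adjusted p = 0.0325). This call was the least firm of the 11. It was lost without Ebf2-positive replicate 1 (-2.26, adjusted p = 0.0700) or any 1 of the Ebf2-negative arrays (-1.99, -2.23 and -2.29 for replicates 1 to 3, with adjusted p of 0.111, 0.0820 and 0.0845). Without both arrays numbered 2 it was -1.63 (adjusted p = 0.0648), with a range from 0.0128 to 0.111 over 18 alternatives.

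Cxcl12 itself, named as the ligand of both although it is not among the 42 genes, stood at 11.92, 12.56 and 11.45 in Ebf2-positive samples, against 10.99, 12.48 and 11.13 in Ebf2-negative samples. The groups overlapped, and the difference of 0.44 had a 95% interval of -0.71 to 1.60.

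Ackr2, the scavenger of inflammatory CC chemokines, stood at 6.28, 8.97 and 7.29 in Ebf2-positive samples, against 3.70, 3.85 and 4.11 in Ebf2-negative samples. Ebf2-positive replicate 2 was the highest array and the groups did not overlap (difference 3.63, SE 0.65, 12.4-fold, limma adjusted p = 0.00906). With the arrays centred on the spiked-in controls it was 1.15 and did not pass (adjusted p = 0.137). Its other probe sets were called higher by 1.35 and 0.87.

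Ackr1, also known as DARC, binds inflammatory chemokines of both the CC and CXC classes and is known on red cells and venular endothelium. It stood at 8.78, 8.004 and 8.92 in Ebf2-positive samples, against 6.89, 6.48 and 5.23 in Ebf2-negative samples. The groups did not overlap, with Ebf2-negative replicate 3 lowest (difference 2.37, SE 0.48, 5.17-fold, limma adjusted p = 0.0145). With the arrays centred on the spiked-in controls the call was lost and the difference turned to -0.11 (adjusted p = 0.890). The erythroid markers had a median difference of -5.21, and the part of red cells in the Ackr1 difference was not tested. Of 6 endothelial markers, 2 were higher (Tek by 2.51 and Esam by 2.48) and 0 lower, with 0 lower at an unadjusted p under 0.05 too. The higher share is 33.3%, against 10.8% of all genes. Cdh5, Kdr and Emcn differed by 1.49, 0.9998 and 0.79 and did not pass. Centring on the spiked-in controls lowers every difference by 2.48, about the size of the Tek and Esam differences. The endothelial list means were 5.80 to 7.24 in Ebf2-positive and 4.22 to 5.74 in Ebf2-negative samples, highest on replicate 2 of each group. The part of endothelial cells in the Ackr1 difference was not tested. Pecam1, the gene of the CD31 gate, averaged 3.57 ± 0.52 on Ebf2-positive arrays and 3.01 ± 0.70 on Ebf2-negative arrays and did not pass (difference 0.56).

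Ackr4, the scavenger of Ccl19, Ccl21 and Ccl25, stood at 4.83, 6.50 and 4.36 in Ebf2-positive samples, against 5.33, 6.15 and 4.53 in Ebf2-negative samples. The groups overlapped throughout, replicate 2 was the highest of both, and the 95% interval of the difference, -1.66 to 1.45, is too wide to say that they were alike.

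The receptors of the 3 higher ligands were dim on all 6 arrays. Ccr3, the eotaxin receptor, read 2.06, 1.72 and 1.91 in Ebf2-positive samples, against 1.74, 2.02 and 2.14 in Ebf2-negative samples. Cxcr5, the receptor of Cxcl13, read 1.996, 2.41 and 1.97 in Ebf2-positive samples, against 2.41, 2.38 and 2.28 in Ebf2-negative samples. Cxcr2, the receptor of Cxcl1, read 2.90, 3.48 and 3.22 in Ebf2-positive samples, against 3.59, 3.58 and 3.72 in Ebf2-negative samples. Their differences were -0.07, -0.23 and -0.43, with 95% intervals of -0.56 to 0.42, -0.71 to 0.25 and -0.95 to 0.08, and none passed. Signal this low cannot show whether a gene is off.

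**Figure D3:**
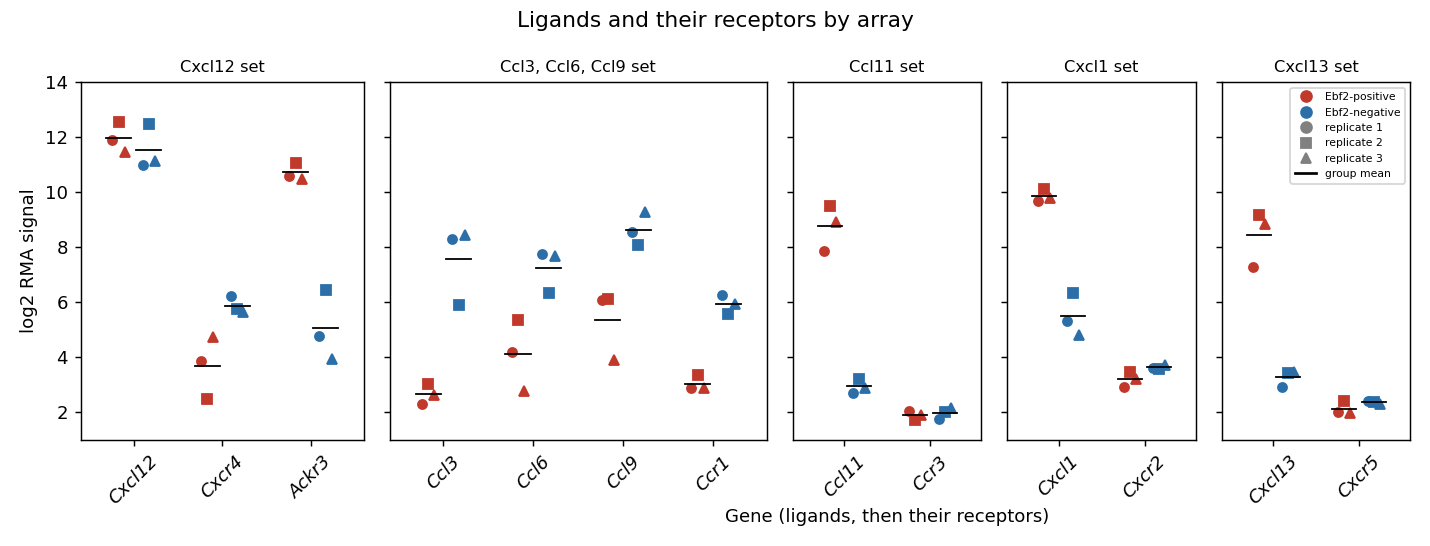
Log2 RMA signal by array for ligands and the receptors that bind them, with Ebf2-positive samples in red at the left of each gene, Ebf2-negative samples in blue at the right, symbols for replicates and lines for group means. Ccl3, Ccl6, Ccl9 and Ccr1 are all lower in Ebf2-positive samples, Cxcr4 and Ackr3 differ in opposite directions, and Ccr3, Cxcr2 and Cxcr5 stay below 4 on every array. Levels of different genes come from different probes and cannot be set against each other.

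The remaining ligands and receptors differed little or varied within a group. Cxcl9, an interferon-induced attractant of T cells, was at 2.76, 7.50 and 3.74 in Ebf2-positive samples, against 5.46, 6.56 and 5.56 in Ebf2-negative samples. Ebf2-positive replicate 2 was the highest of all 6 arrays, and the difference of -1.19 did not pass (limma, adjusted p = 0.518). Without that array it was -2.61 (adjusted p = 0.0140), and over 19 alternatives adjusted p ran from 0.0140 to 0.908. On the same array the monocyte and macrophage list had its highest mean of the 6 arrays (4.51), and the endothelial list too (7.24). So did the neutrophil (9.41), B-cell (4.61), dendritic-cell (3.89) and fibroblast (12.14) lists. The part of any of these cells in the Cxcl9 signal was not tested.

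Ccl8, a CC chemokine, was at 5.35, 4.07 and 5.52 in Ebf2-positive samples, against 3.82, 4.02 and 4.32 in Ebf2-negative samples. Ebf2-positive replicate 2 lay inside the Ebf2-negative range, and the difference of 0.93 did not pass (adjusted p = 0.163 with limma). Without that array it was 1.38 (adjusted p = 0.0121), in a range of 0.0121 to 0.357 over 17 alternatives. Cx3cl1, the membrane-bound fractalkine, was at 5.68, 5.84 and 6.01 in Ebf2-positive samples, against 4.89, 6.75 and 4.80 in Ebf2-negative samples. Ebf2-negative replicate 2 was above and the other Ebf2-negative arrays below all Ebf2-positive arrays. The difference was 0.36 (adjusted p = 0.667 with limma) and passed without that array (1.001, adjusted p = 0.0391), in a range of 0.0391 to 0.983 over 19 alternatives. The other Cx3cl1 probe sets differed by 0.07, 0.10 and -0.40 on all 6 arrays, and none passed.

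Ccl2, the main monocyte attractant, averaged 5.69 ± 0.36 in Ebf2-positive and 4.998 ± 0.51 in Ebf2-negative samples (SD, n = 3 each), and its receptor Ccr2 averaged 5.58 ± 0.37 in Ebf2-positive and 4.94 ± 0.31 in Ebf2-negative samples. The differences, 0.70 and 0.64, did not pass (limma, adjusted p = 0.182 and 0.149). Ccl25, the thymic and gut ligand of Ccr9, had groups that did not overlap, at 2.99, 2.89 and 3.47 in Ebf2-positive samples against 3.57, 3.87 and 3.89 in Ebf2-negative samples. Its difference of -0.66 did not pass (adjusted p = 0.0877 with limma), but the mean of its 2 probe sets did (-0.80, adjusted p = 0.0173, in a range of 0.0173 to 0.363 over 17 alternatives), and it passed without Ebf2-positive replicate 3 (-0.84, adjusted p = 0.0446).

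Among the other members not yet named with values, none passed, and the differences ran from -0.49 (Ccl17) to 0.59 (Xcl1). They are Ccl5, Ccl7, Ccl17, Ccl20, Ccl22, Ccl24, Ccl28, Cxcl2, Cxcl5, Cxcl10, Cxcl11, Cxcl16 and Xcl1 among the ligands and Ccr6, Ccr7, Ccr9, Cxcr3, Cxcr6 and Cx3cr1 among the receptors. Xcl1, the lymphotactin of T and NK cells, passed as higher under 1 alternative, a mean-dependent variance (adjusted p = 0.0388, in a range of 0.0388 to 0.299 over 17 alternatives). Of the 42 genes, 17 had a mean below 4 in both groups and 23 a mean below 5.13, the median over all genes, in both groups.

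Chemokine genes lie in runs on the chromosomes, and the calls fell on single genes of a run in some and on neighbours in others. On chromosome 11, Ccl11 differed by 5.82 while its neighbours Ccl2, Ccl7, Ccl12, Ccl8 and Ccl1 differed by 0.70, -0.05, 0.12, 0.93 and 0.0027, and none of them passed. In the other run of that chromosome, Ccl9, Ccl6 and Ccl3 follow each other and were all called lower, with Ccl4 next to them at -1.61 and Ccl5 at 0.22. On chromosome 5, Cxcl1 differed by 4.37 between neighbours Cxcl15 and Cxcl2, which differed by 0.24 and 0.35, while Ppbp and Pf4 in the same run were called lower. On chromosome 9, Ccr1 was called lower and its neighbours Ccr3, Ccr2, Xcr1, Cxcr6 and Ccr9 were not called. Of the neighbours named here without a call, Ccl5, Ccl7, Ccl12, Ccl1, Cxcl2, Cxcl15, Ccr3, Ccr9, Cxcr6 and Xcr1 had means below 4 in both groups.

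**Figure D4:**
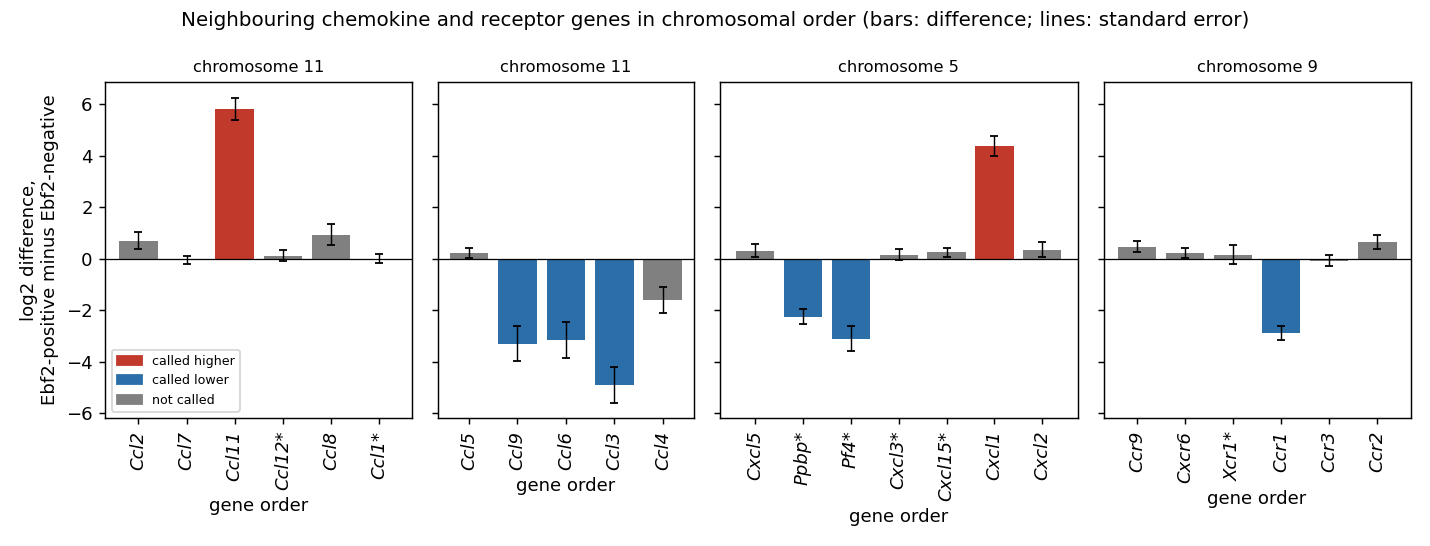
Differences in log2 RMA signal, Ebf2-positive minus Ebf2-negative, for the 4 runs of at least 5 neighbouring chemokine or receptor genes, in chromosomal order and not to distance. Bars are limma estimates, lines are standard errors, and an asterisk marks relatives outside the 42 genes. Ccl11 and Cxcl1 stand alone above their neighbours, and Ccl9, Ccl6 and Ccl3 form a stretch below 0.

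Of 14 measured relatives outside the 42 genes, 3 were lower (21.4%, against 13.6% of all genes) and 0 higher (against 10.8%), with 0 higher in limma at an unadjusted p under 0.05. Pf4 and Ppbp, chemokines of platelet granules, averaged 5.74 ± 0.78 and 3.66 ± 0.24 in Ebf2-positive samples, against 8.84 ± 0.62 and 5.90 ± 0.48 in Ebf2-negative samples. Their differences were -3.10 and -2.24 (limma, adjusted p = 0.00559 and 0.00323). Of 6 megakaryocyte markers, 2 were lower, Itga2b (-1.67) and Gp9 (-0.99), or 33.3%, against 13.6% of all genes. The others, Treml1, Gp1bb, Gp6 and Vwf, differed by -0.50, -0.15, 0.05 and 0.21 and did not pass. The part of these cells in the Pf4 and Ppbp differences was not tested. Ccrl2, a non-signalling receptor relative that binds chemerin, differed by -1.91 (adjusted p = 0.0323).

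Of 17 measured genes that process or present chemokines, 7 were higher (41.2%, against 10.8% of all genes) and 3 lower (17.6%, against 13.6%), with a median difference of 0.94. The largest were Mmp2, a gelatinase that trims chemokines (5.27), Tnfaip6, a secreted hyaluronan-binding protein that also binds chemokines (4.62), and Sdc2 and Sdc4, heparan sulphate proteoglycans of the cell surface on which chemokines are held (3.71 and 2.997). Dpp4, the peptidase that inactivates Cxcl12, is named after its values were seen, with means of 8.43 ± 0.25 on Ebf2-positive arrays and 6.65 ± 0.18 on Ebf2-negative arrays (1.78, below 0 when centred on the spiked-in controls). The lower members were Hs6st1, Mmp9 and Adam10.

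Of 26 genes that act below the receptors, 4 were higher (15.4%, against 10.8% of all genes) and 6 lower (23.1%, against 13.6%), with a median difference of -0.22. Grk3 and Grk5, kinases that phosphorylate active receptors and end their signal, were higher by 2.14 and 2.13, but both change sign with the arrays centred on the spiked-in controls, which lowers every difference by 2.48. Rgs18, a G protein regulator of platelets and leukocytes, and Vav1, an exchange factor of blood cells, were lower (-3.74 and -3.12).

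Of 24 measured inducers of chemokine genes and their receptors, 6 were higher (25%, against 10.8% of all genes) and 1 lower (4.17%, against 13.6%), with a median difference of 0.49. Il13ra1 and Il4ra, the chains of the receptor through which IL-4 and IL-13 act on non-blood cells, averaged 7.04 ± 1.01 and 6.59 ± 0.64 in Ebf2-positive samples, against 3.61 ± 1.21 and 4.30 ± 0.27 in Ebf2-negative samples (differences 3.43 and 2.29). Tnfrsf1a, the main TNF receptor, was higher by 1.96 and Il1r1, the signalling IL-1 receptor, by 1.95, and both, like Il4ra, change sign under that centring. The cytokine genes Il1a, Il1b, Tnf, Ifng, Ifnb1, Il4, Il13, Il6 and Il17a were not called. Il17ra, the shared IL-17 receptor chain, was the lower member (-1.70).

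Array-wide normalization makes each difference relative to the rest of the signal. The poly-A controls, bacterial transcripts spiked into the RNA, read 12.32 ± 0.23 in Ebf2-positive and 9.84 ± 0.996 in Ebf2-negative samples. Centring on them lowers every difference by 2.48, after which Ccl11, Cxcl13, Cxcl1 and Ackr3 were still called higher (3.34, 2.68, 1.89 and 3.19), and Ackr1 and Ackr2 were not. On that scale Cxcl14 and Cxcl12 change sign as well.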

How the data were processed

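Each of the 6 samples gave 1 array. The intensity values deposited by the authors are RMA values, per the series design text and the submitters' processing notes, which leave out the RMA version. The RMA method subtracts background, gives all arrays the same distribution and combines the probes of a set. Their range shows a linear scale, so log2 was taken before any test. Of 45101 probe sets, 64 controls were left out. GEO's platform annotation names 1 gene for 34945 probe sets, several for 932 and none for 9160, and Entrez identifiers matched to RefSeq (GRCm38.p6) changed 0 symbols. Quantile normalization hides differences in total RNA, and amplification of few cells adds spread to dim genes. Depth has no meaning here, and 3 arrays per group limit the precision.

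The test was limma's moderated one (version 3.58.1, R 4.3.3), two-sided, with group as the only term and an adjusted p under 0.05 as the threshold. Figures used matplotlib 3.10.9 in Python 3.11.15. The fit was tested on simulated data. Genes given by array were the called members and those bright in a group (mean above 7.08, the 75th percentile of gene means). From each further list outside the cell type markers, up to 4 called genes with the largest differences are given by their differences or group means. The marker lists are given by counts and list means, and only some of their genes are named. Other genes given by array were chosen after their values were seen. Promoters were shown in place of the protein sequences first planned. The members and lists were chosen with earlier results of these data known. Neutrophil markers (2 of 9 higher and 0 lower, 4 lower at an unadjusted p under 0.05), B-cell, T and NK-cell, eosinophil and dendritic-cell markers (0 of 6, 8, 4 and 4 called in limma, with 1, 0, 1 and 0 lower and 0 higher at an unadjusted p under 0.05) were also read. The 20 alternatives were other scalings (quantile, median, 75th percentile, poly-A controls), filters on dim genes, the mean of probe sets, no cross-hybridising probe sets, a pseudocount of 16, other variance models, array weights, the replicate number as a block, and leaving out arrays.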

Additional observations from a re-analysis of the deposited data

How the results depend on the processing

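Of the 11 calls, all 11 were kept with arrays quantile-normalized again, or centred at their median or 75th percentile, and with the filter at 5 on at least 3 arrays, the mean of probe sets, the pseudocount, both variance models, array weights and the replicate block. The filter at the median signal left 3 of them untested (Ccl3, Ccr1 and Cxcr4), so that 3 genes were called lower (Ccl4, Ccl6 and Ccl9), and Ackr3 has only a probe set ending in _s_at. Centring on the 75th percentile shifted the median difference of all genes by 0.19 and made 54.2% of calls higher, against 44.3% as given, 41.9% with the median and 1.43% with the poly-A controls. Poly-A centring gave 35 chemokine genes called lower and 15823 of all genes called, 227 higher and 15596 lower. Ackr1 then differed by -0.11, and these uncalled genes became negative and passed: Ccl2 (-1.78), Ccl5 (-2.26), Ccl8 (-1.55), Ccl22 (-2.14), Ccl24 (-2.31), Ccl28 (-2.23), Cxcl2 (-2.13), Cxcl5 (-2.17), Cxcl11 (-2.45), Cxcl16 (-2.40), Cx3cl1 (-2.11), Xcl1 (-1.89), Ccr2 (-1.84), Ccr6 (-2.34), Ccr9 (-2.01), Cxcr3 (-2.35), Cxcr6 (-2.26) and Cx3cr1 (-2.38). The cause of the brighter controls was not tested. Leaving out single arrays gave 6 to 8 chemokine genes higher and 2 to 6 lower, with 2690 to 4348 of all genes called, 1294 to 1877 higher and 1396 to 2471 lower, and without both arrays numbered 2 there were 1642 lower. Fewer arrays also lower the power. With the replicate number as a block, 7 chemokine genes were higher and 6 lower, adding Cxcl14 and Ccl4, and 4219 of all genes were called. Same-numbered arrays had correlations of deviations of 0.06, 0.11 and 0.03, and differently numbered arrays had -0.10 to 0.04. The same-numbered values are mostly the higher ones, but the ranges overlap, so the number is not shown to pair the arrays. Signal near the lower end of the range limits what can be said of the 17 genes below 4 in both groups.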

Other observations

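Several genes had probe sets that read differently. Ackr4, Ccr2, Cx3cl1, Ccr9 and Cx3cr1 each had probe sets of both signs, and none of these passed over all probe sets. For Ackr4 the one used differed by -0.11 and the others by 0.34 and 0.48. For Ccr2 the one used differed by 0.64 and the others by 0.34, 0.11 and -0.22. Of the 71 probe sets that name only a member, Ccl28 had 1 that differed by -0.27 and others by 0.25, and Cxcl16 had 1 at 0.08 (the one used) and 1 at 1.02 (adjusted p = 0.167 over all probe sets with limma). The other Cxcl14 probe set differed by 2.34 and did not pass either (adjusted p = 0.0584). The Ccl25 probe set that was not used differed by -0.94 and passed (adjusted p = 0.0249).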
